A study of Mus musculus with 4 samples.

Results

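The 10 genes described here encode the core proteins of the muscle basement membrane: the collagen IV chains Col4a1 and Col4a2, the laminin chains Lama2, Lama4, Lamb1, Lamb2 and Lamc1, the nidogens Nid1 and Nid2, and Hspg2, which encodes perlecan. They were taken by symbol from the 32285 genes of the deposited matrices, and all 10 were found. Mononuclear cells had been isolated from the quadriceps and the diaphragm of WT mice and of mdx5cv mice, a strain with a mutation in dystrophin that serves as a model of Duchenne muscular dystrophy, all aged 14 weeks. The cells were cryopreserved, thawed and profiled with 10x Genomics 3′ chemistry, which counts a tag near the 3′ end of each captured transcript as a unique molecular identifier (UMI). The 4 groups were WT quadriceps, mdx5cv quadriceps, WT diaphragm and mdx5cv diaphragm, with 1 library each. How many animals each library came from is not recorded in the labels. There is therefore no replicate check of any difference below, no test was run, and every interval is a 95% interval that covers counting error only. Because the preparation held mononuclear cells, the muscle fibres were not sampled. Values of the 4 libraries are given in the order in which the groups are named above.

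Barcodes with at least 1000 UMIs and 500 genes and at most 15% mitochondrial UMIs were kept, which left 4911, 8334, 7516 and 7402 cells. Their libraries held 18837891, 62780685, 40226833 and 49612759 UMIs, and the median per cell was 2055, 5328.5, 4355.5 and 4894.5 UMIs, so the WT quadriceps library was the shallowest. The kept barcodes gave 36433, 76730, 121877 and 86073 UMIs of the 10 genes. Between 5 and 17 barcodes were shared by any pair of libraries, at most 0.285% of the smaller. A cell was assigned to the class of which it showed the highest share of marker genes, with at least 3 markers detected. Barcodes that showed 2 classes at once were left out, except that the myeloid and lymphoid classes were not set against each other. None of the 10 genes was a marker. In all, 25536 of 28163 cells (90.7%) were assigned.

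Basement membranes are thin sheets of matrix that wrap each muscle fibre, each capillary and each nerve fibre. Laminin trimers of an alpha, a beta and a gamma chain bind cell surface receptors and form the first layer, collagen IV trimers form a covalently linked second network, and nidogens and perlecan tie the networks together. The laminin alpha 2 chain marks the membrane of muscle fibres, where it binds dystroglycan, the partner of dystrophin, and loss of LAMA2 causes a congenital muscular dystrophy in humans. The laminin alpha 4 chain is found in vessels and peripheral nerve, where it is not the only alpha chain. Collagen IV is known as a product of both endothelial cells and fibroblasts.

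Col4a1 and Col4a2 lie head to head on mouse chromosome 8. In GENCODE M21 on GRCm38, the assembly also called mm10, Col4a1 spans chr8:11198423-11312826 on the minus strand and Col4a2 spans chr8:11312805-11449287 on the plus strand, so the annotated start sites are 21 bases apart and the first bases overlap. The RefSeq windows of 300 bases around each start (GRCm38.p6, 250 before and 50 after) are shown because this pair moved together most closely in the data below. Each is written 5′ to 3′ on the strand of its gene. Capitals mark the 78 bases at chr8:11312777-11312854 that the windows share, read on opposite strands.
Col4a1, chr8:11312777-11313076, minus strand: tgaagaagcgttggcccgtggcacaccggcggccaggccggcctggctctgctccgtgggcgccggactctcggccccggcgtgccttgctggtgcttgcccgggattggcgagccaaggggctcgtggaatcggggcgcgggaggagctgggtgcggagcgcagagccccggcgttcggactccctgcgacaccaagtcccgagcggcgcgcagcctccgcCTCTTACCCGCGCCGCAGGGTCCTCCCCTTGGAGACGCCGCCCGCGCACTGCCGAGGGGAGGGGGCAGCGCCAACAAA
Col4a2, chr8:11312555-11312854, plus strand: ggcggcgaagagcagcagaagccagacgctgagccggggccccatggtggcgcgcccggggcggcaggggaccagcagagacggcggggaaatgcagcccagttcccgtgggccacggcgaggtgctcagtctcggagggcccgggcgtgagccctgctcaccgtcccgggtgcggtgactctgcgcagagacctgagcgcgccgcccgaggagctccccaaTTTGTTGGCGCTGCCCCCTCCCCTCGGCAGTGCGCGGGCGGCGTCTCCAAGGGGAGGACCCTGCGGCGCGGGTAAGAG
The GC box GGGCGG occurred 1 time in the Col4a1 window and 3 times in the Col4a2 window, counted on both strands, and it was present in 35.7% of 32851 mouse promoter windows of the same length. CCAAT occurred 1 time in each window and in 37.4% of all windows, and TATAAA occurred in neither and in 13.6% of all windows. The GC box of the Col4a1 window lies in the shared bases and is also 1 of the 3 counted in the Col4a2 window. G and C made up 74% of the Col4a1 window and 73.7% of the Col4a2 window, against a median of 52.7%. The other genes lie apart from each other: Lama2 at chr10:26980036-27619758, Lama4 at chr10:38965515-39110188, Lamb1 at chr12:31265234-31329644, Lamb2 at chr9:108479736-108490530, Lamc1 at chr1:153218922-153332786, Nid1 at chr13:13437551-13512269, Nid2 at chr14:19751265-19811787 and Hspg2 at chr4:137468769-137570630.

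The classes were unevenly recovered. Endothelial-like cells numbered 2570, 419, 75 and 356, muscle stem cell-like cells 236, 158, 75 and 170, and fibroblast-like cells 839, 1260, 6218 and 2902. Mural-like cells (pericytes and smooth muscle) numbered 105 and 23 and Schwann-like cells 67 and 27 in the WT and mdx5cv quadriceps, with at most 7 of either in a diaphragm library, so those classes are described in quadriceps. The summed fibroblast markers stood between 45 and 90 UMIs per 1000000 UMIs of the class (CPM) in endothelial-like cells against at least 6626 CPM in fibroblast-like cells, and between 309 and 430 CPM in stem cell-like cells. In myeloid-like cells, which are not known as a source of these proteins, each of the 10 genes stood at 0 to 17.2 CPM. The estimated share of free RNA was at most 5.22% of the UMIs of endothelial-like cells and 10.6% of those of fibroblast-like cells. Because the tags lie at the 3′ end and capture differs between transcripts, a level is compared for the same gene across classes and libraries and not between genes.

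Collagen IV was carried by endothelial-like, mural-like and fibroblast-like cells, and also by Schwann-like and tenocyte-like cells, whose values are given further below. Col4a1, the alpha 1 chain of the collagen IV trimer, stood at 816, 2604, 583 and 1992 CPM in endothelial-like cells and at 868, 1464, 507 and 725 CPM in fibroblast-like cells. In WT quadriceps its level was 827 CPM in mural-like cells (703 to 967), and the intervals of the fibroblast-like (835 to 902), mural-like and endothelial-like classes (791 to 841) overlapped. In both mdx5cv libraries the endothelial-like level was the highest of these classes, without overlap of the intervals with the fibroblast-like level. In stem cell-like cells Col4a1 stood at 194, 154, 155 and 175 CPM. Col4a2, the alpha 2 chain of the same trimer, was highest in endothelial-like cells of all 4 libraries when these were compared with stem cell-like and fibroblast-like cells. Its level was 582, 1265, 392 and 1016 CPM in endothelial-like cells and 433, 630, 230 and 382 CPM in fibroblast-like cells. Mural-like cells of WT quadriceps held 564 CPM of Col4a2 (462 to 681), within counting error of the endothelial-like level.

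The laminin alpha chains were split between the classes. Lama2, the alpha 2 chain of the muscle fibre membrane, was highest in fibroblast-like cells of every library, with 518, 265, 409 and 299 CPM. Its stem cell-like levels were 108, 144, 133 and 139 CPM. Mural-like cells held 132 and 75.6 CPM and Schwann-like cells 92.3 and 38.2 CPM of Lama2 in WT and mdx5cv quadriceps. Endothelial-like cells held 4.66, 0.89, 5.30 and 0 CPM, which was 23, 1, 1 and 0 UMIs. The free RNA of the same libraries held 75.5, 53.5, 185 and 85.9 CPM of Lama2. Free RNA was an estimated 3.81%, 5.22%, 0% and 1.94% of the UMIs of endothelial-like cells. Whether these few Lama2 UMIs came from free RNA was not tested. Lama4, the alpha 4 chain, showed the reverse in stem cell-like and endothelial-like cells. It stood at 280, 275, 382 and 351 CPM in endothelial-like cells and at 1.96, 0, 0 and 2.21 CPM in stem cell-like cells, the last from 1, 0, 0 and 3 UMIs. Schwann-like cells held 315 and 357 CPM of Lama4, within counting error of the fibroblast-like levels of 310 and 296 CPM in the same quadriceps libraries. The fibroblast-like levels in the diaphragm were 190 and 200 CPM, below the endothelial-like levels there.

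The beta and gamma chains were broader. Lamb1, the beta 1 chain, was highest in fibroblast-like cells of both quadriceps libraries and of the WT diaphragm, with 186, 230, 176 and 174 CPM over the 4 libraries. In the mdx5cv diaphragm the endothelial-like level of Lamb1, 191 CPM (164 to 220), overlapped the fibroblast-like interval of 168 to 181. Lamb2, the beta 2 chain known from vascular smooth muscle and the neuromuscular synapse, stood at 216 and 348 CPM in mural-like cells of WT and mdx5cv quadriceps. Among mural-like cells with pericyte or smooth muscle markers the Lamb2 level was 180 and 126 CPM in the 81 and 14 pericyte-like cells and 252 and 552 CPM in the 15 and 9 smooth muscle-like cells. Lamc1, the gamma 1 chain that nearly all of these trimers share, was detected in each of the 5 classes. Of the 3 classes compared in all 4 libraries it was highest in fibroblast-like cells, with 737, 541, 621 and 465 CPM, and stood at 361 and 497 CPM in Schwann-like cells, at 216 and 242 CPM in mural-like cells, and at 133, 217, 132 and 119 CPM in endothelial-like cells.

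The linker proteins differed in spread. Nid1, which bridges the laminin gamma 1 chain and collagen IV, was highest in fibroblast-like cells of every library, with 1552, 999.5, 1164 and 922 CPM. Mural-like cells held 311 and 317 CPM, and among those the WT quadriceps pericyte-like cells held 462 CPM while 0 UMIs were found in the 15 smooth muscle-like cells. Nid2, its homologue, stood at 132, 147, 76.1 and 88.4 CPM in fibroblast-like cells and at 131 CPM (76.2 to 209) in Schwann-like cells of WT quadriceps. Hspg2, the heparan sulfate proteoglycan perlecan, stood at 482, 811, 307 and 672 CPM in endothelial-like cells and at 531, 769, 416 and 583 CPM in fibroblast-like cells. The fibroblast-like level of Hspg2 was the higher in both WT libraries and the endothelial-like level in both mdx5cv libraries, and the intervals overlapped in mdx5cv quadriceps (759 to 865 against 750 to 788).

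**Figure D1:**
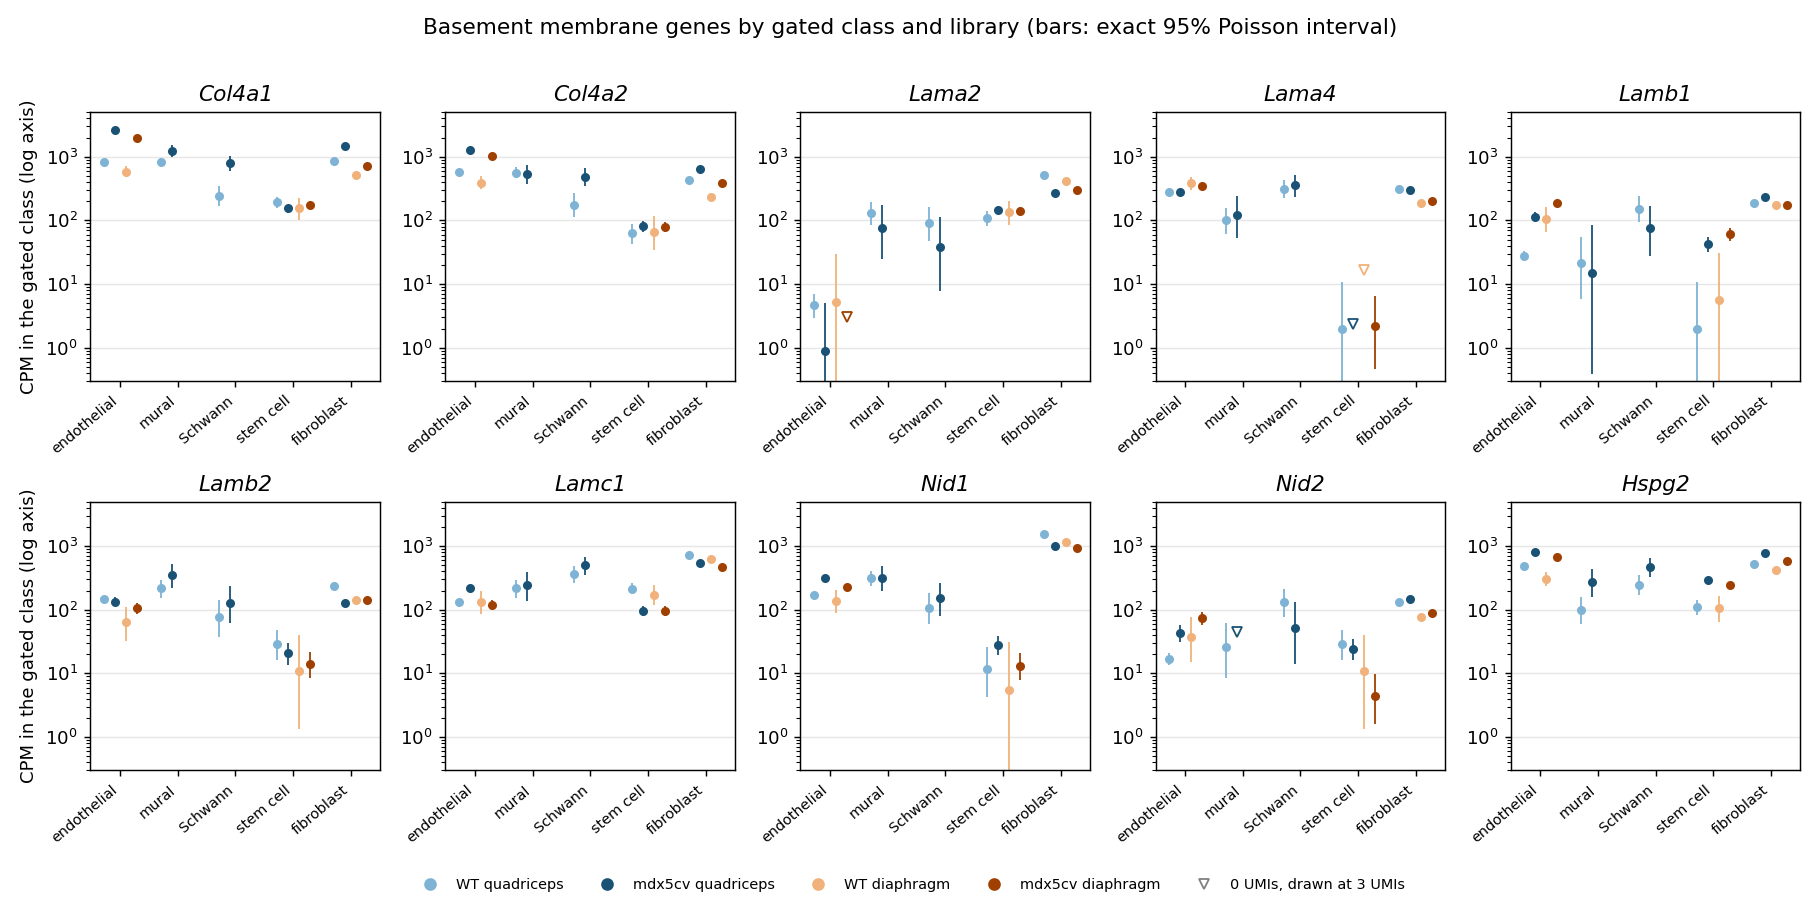
Level of each gene, in CPM on a log axis, in 5 classes of cells; points are libraries, coloured by group, bars are exact Poisson intervals and open triangles are 0 UMIs drawn at the level of 3 UMIs. Lama2 nearly disappears in endothelial-like cells and Lama4 in stem cell-like cells, while Lamc1 is present in every class.

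Counted over all assigned cells, the source of a transcript followed the number of cells as well as the level. In WT quadriceps, where endothelial-like cells were 60.3% of assigned cells, they held 57.3% of Col4a1 UMIs (56.1 to 58.5) and 65.3% of Col4a2 UMIs, and fibroblast-like cells, 19.7% of cells, held 37.9% and 30.2%. In mdx5cv quadriceps endothelial-like cells were 5.60% of assigned cells and held 18.2% of Col4a1 UMIs, and fibroblast-like cells, 16.9% of cells, held 76.7%. In WT diaphragm fibroblast-like cells were 87.7% of assigned cells and held at least 91.1% of the UMIs of each of the 10 genes, the lowest share being that of Nid2. In mdx5cv diaphragm they were 43.2% of cells and held between 83.7% (Col4a1) and 97.6% (Nid1). Fibroblast-like cells held 91.0%, 88.9%, 99.7% and 96.0% of Lama2 UMIs. How many cells of a class were recovered from a tissue and how many it holds cannot be told apart here.

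For pairs of related genes, the share of 1 member in their summed UMIs was compared across classes. Alpha chains replace each other in a laminin trimer, as do beta chains, whereas the collagen IV chains are built into the same trimer and the nidogens are not trimer chains. Lama4 made up 98.4%, 99.7%, 98.6% and 100% of the summed Lama4 and Lama2 UMIs in endothelial-like cells and 1.79%, 0%, 0% and 1.57% in stem cell-like cells. Schwann-like cells were near the endothelial-like end, with 77.4% (63.8 to 87.7) and 90.3% (74.2 to 98.0) in WT and mdx5cv quadriceps. Fibroblast-like cells lay between, with 37.4%, 52.8%, 31.8% and 40.1%, and the share of Lama4 in them was higher in mdx5cv than in WT in both muscles without overlap of the intervals. Lamb2 made up 91.1% and 95.8% of the summed Lamb2 and Lamb1 UMIs in mural-like cells. In endothelial-like cells its share was 84.2% (81.6 to 86.6) in WT quadriceps, 54.5% (48.4 to 60.5) in mdx5cv quadriceps, 37.5% (21.1 to 56.3) in WT diaphragm and 35.6% (30.1 to 41.3) in mdx5cv diaphragm, so the quadriceps libraries differed beyond counting error and the diaphragm libraries did not. In fibroblast-like cells the share of Lamb2 was 55.6%, 35.9%, 44.4% and 44.6%. Nid2 made up 7.85%, 12.8%, 6.13% and 8.74% of the summed Nid2 and Nid1 UMIs in fibroblast-like cells. Col4a2 made up 41.7%, 32.7%, 40.2% and 33.8% of the summed collagen IV UMIs in endothelial-like cells and 33.3%, 30.1%, 31.2% and 34.5% in fibroblast-like cells, and among these sets the WT quadriceps endothelial-like share stood above the mdx5cv endothelial-like and all fibroblast-like shares beyond counting error.

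**Figure D2:**
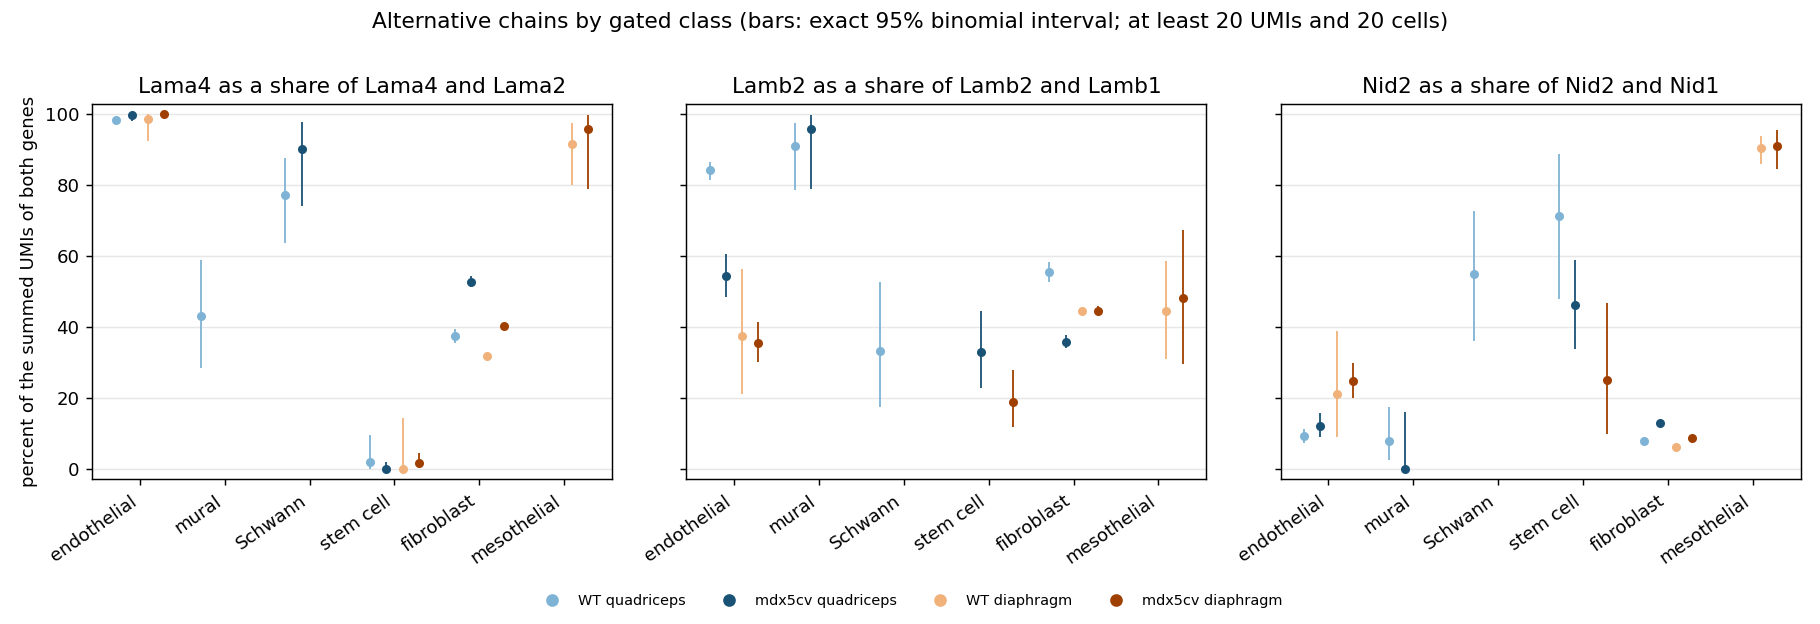
Share of the first-named gene in the summed UMIs of a pair, in percent, by class; points are libraries, coloured by group, bars are exact binomial intervals, and sets with under 20 UMIs or 20 cells are left out. Endothelial-like cells sit near 100% for Lama4 and stem cell-like cells near 0%, and the endothelial-like share of Lamb2 spans 35.6% to 84.2%.

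In endothelial-like cells the collagen IV chains and perlecan were higher in mdx5cv in both muscles. A gene was called higher or lower where the ratio of CPM was at least 1.5-fold with an interval leaving out 1, among genes at 20 CPM or more in 1 of the 2 libraries. In each muscle 9 of the 10 genes passed that level filter. By the rule 7 of the 9 were higher and 0 lower in quadriceps, where 17.8% of all genes tested were higher and 7.43% lower. In diaphragm 5 of 9 were higher and 0 lower, against 6.96% and 7.38% of all genes. The median over the 10 genes was 0.82 in quadriceps and 0.79 in diaphragm on the log2 scale. Over the 9 that passed the filter it was 0.89 and 0.85, beside 0.17 and 0.07 over all genes tested, which had passed the same filter. Col4a1 was 3.19-fold higher in quadriceps (3.04 to 3.35) and 3.42-fold higher in diaphragm (2.82 to 4.18). Col4a2 was 2.17-fold higher (2.04 to 2.32) and 2.59-fold higher (2.04 to 3.33). For both chains, both mdx5cv libraries stood above both WT libraries. Hspg2 was 1.68-fold higher (1.56 to 1.81) in quadriceps and 2.19-fold higher (1.67 to 2.91) in diaphragm.

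Of the laminin chains in endothelial-like cells, Lamb1 rose and Lama4 did not pass. Lamb1 stood at 27.6, 112, 106 and 191 CPM, a rise of 4.06-fold in quadriceps (3.16 to 5.22) and 1.80-fold in diaphragm (1.13 to 3.01), the latter from 20 UMIs in WT. The WT quadriceps library was low and the mdx5cv quadriceps and WT diaphragm libraries were alike. Lama4 gave a ratio of 0.982 in quadriceps (0.865 to 1.11) and 0.920 in diaphragm (0.712 to 1.20). Lamb2 stood at 147, 134, 63.6 and 105 CPM and was not called. Lamc1 was 1.63-fold higher in quadriceps (1.41 to 1.90), and its ratio in diaphragm was 0.901 (0.581 to 1.45). Set against each other, the quadriceps ratio exceeded the diaphragm ratio by 1.18 log2 units for Lamb1 (0.43 to 1.93) and by 0.86 for Lamc1 (0.20 to 1.52), the 2 genes of the 10 past 1.5-fold by a counting interval, where 12.3% of all genes were past in that direction and 5.02% in the other. Nid1 stood at 168, 311, 138 and 227 CPM, 1.85-fold higher in quadriceps (1.63 to 2.10) and 1.64-fold in diaphragm (1.09 to 2.57). Nid2 stood at 16.8, 42.7, 37.1 and 74.2 CPM and was 2.54-fold higher in quadriceps (1.74 to 3.66). The WT diaphragm values rest on 75 cells, and with a mitochondrial limit of 5%, which leaves 22 of them, the diaphragm differences of Lamb1 and Nid1 came to 0.19 and 0.04 log2 units and were no longer called. When each cell was thinned to 1000 UMIs, the diaphragm calls of Lamb1 (1.10 log2 units) and Nid1 (0.91) were also lost and Lamc1, at -1.04, was called lower. Relative to the median gene, Hspg2 and Lamc1 stood at 0.58 and 0.54 log2 units in quadriceps, just under 1.5-fold.

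**Figure D3:**
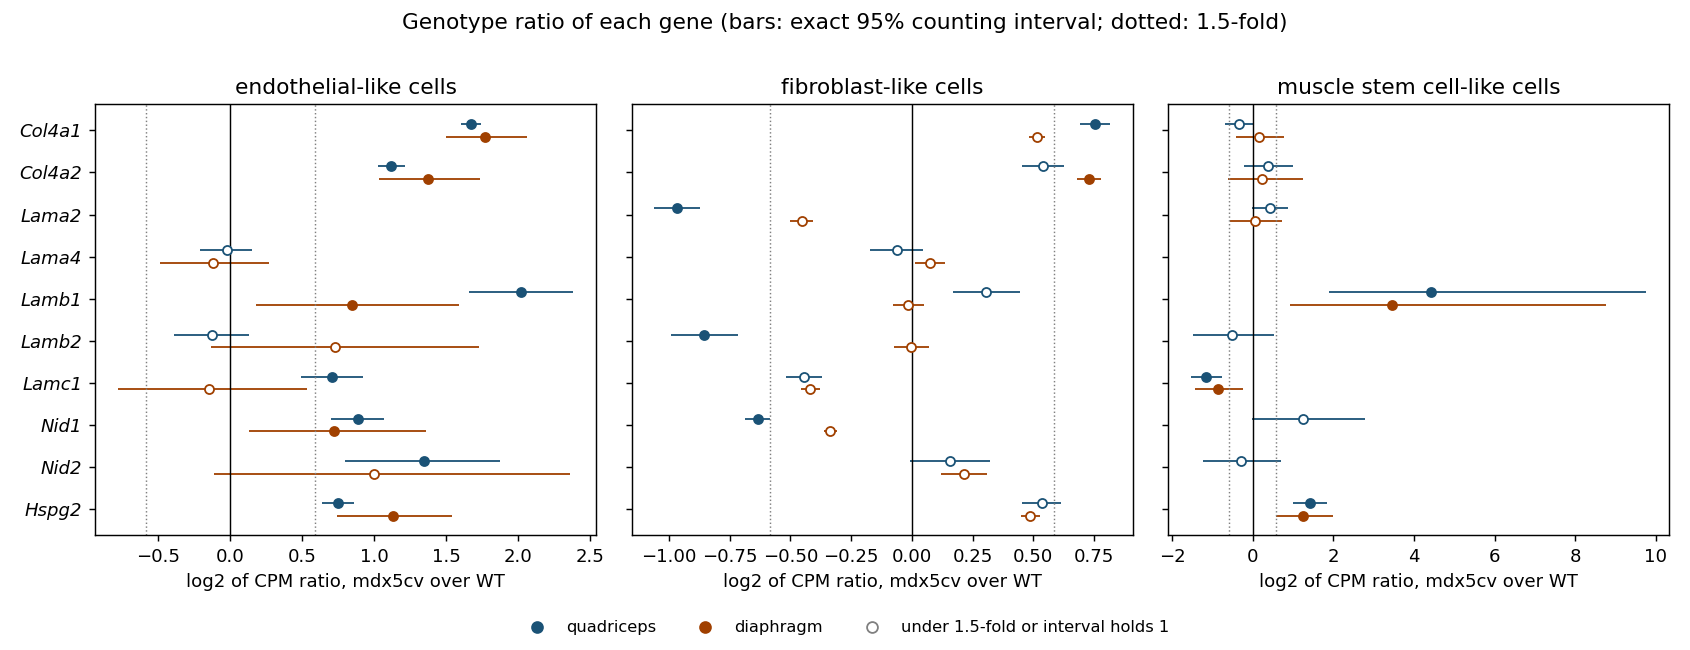
Ratio of CPM between mdx5cv and WT on a log2 axis for each gene in endothelial-like, fibroblast-like and muscle stem cell-like cells; blue is quadriceps, brown is diaphragm, bars are exact counting intervals, dotted lines mark 1.5-fold and open points are under it or have an interval that holds 1. In endothelial-like cells Col4a1 lies at 3.19-fold and 3.42-fold in the 2 muscles, while in fibroblast-like cells Lama2 and Lamb2 lie to the left in quadriceps.

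The endothelial difference was also seen in cells. After each cell was thinned to 1000 UMIs, Col4a1 was found in 52.2%, 84.2%, 38.7% and 76.4% of endothelial-like cells (70.1%, 95.2%, 66.7% and 91.6% before thinning, at median depths of 1651.5, 2193, 2136 and 2304.5 UMIs). The same thinned share in myeloid-like cells was 0.767%, 0.912%, 0.265% and 0.747%, at median depths of 3602, 5548.5, 3880 and 5624 UMIs. Thinned Hspg2 was found in 38.8%, 54.9%, 26.7% and 46.9% of endothelial-like cells and thinned Lama4 in 25.2%, 24.6%, 40% and 29.5%. Capillary-like cells, with markers such as Rgcc and Gpihbp1, were the largest state, 2266, 339, 38 and 290 cells. In them 7 of the 9 genes that passed the filter were higher and 0 lower in quadriceps, against 17.4% and 7.33% of all genes. In diaphragm 4 of 9 were higher and 0 lower, against 3% and 3.72%. Col4a1 in capillary-like cells stood at 878, 2941, 857 and 2358 CPM, which was 3.35-fold (3.19 to 3.52) and 2.75-fold (2.16 to 3.56) higher in mdx5cv. In quadriceps Col4a1 was 3.80-fold higher (2.73 to 5.26) in arterial-like cells, where 2 of 7 genes were higher and 0 lower (6.22% and 2.15% of all genes). It was 3.50-fold higher (2.58 to 4.78) in venous-like cells, where 3 of 8 were higher and 0 lower (7.1% and 3.23% of all genes). The levels of Col4a1 there were lower than in capillary-like cells of the same library, 356 and 1354 CPM in arterial-like and 249 and 874 CPM in venous-like cells of WT and mdx5cv quadriceps. The arterial-like and venous-like cells of mdx5cv quadriceps numbered 21 and 34.

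In fibroblast-like cells Col4a1 was higher and the alpha 2, beta 2 and nidogen 1 transcripts lower in mdx5cv quadriceps, and in diaphragm Col4a2 was higher. By the rule 1 of the 10 genes was higher and 3 lower in quadriceps, where 18.5% of all genes were higher and 14.6% lower, and 1 was higher and 0 lower in diaphragm, against 9.61% and 10.5%. The counts of higher genes are thus near or under the background. Col4a1 was 1.69-fold higher in quadriceps (1.62 to 1.76) and at a ratio of 1.43 in diaphragm (1.40 to 1.46). Col4a2 was at a ratio of 1.45 in quadriceps (1.37 to 1.55) and 1.66-fold higher in diaphragm (1.60 to 1.72). Hspg2 had ratios of 1.45 and 1.40, under the rule in both muscles. For these genes both mdx5cv values exceeded the WT value of the same muscle, and the rule divides ratios that lie close to 1.5. When every cell counted equally, Col4a2 and Hspg2 in quadriceps came to 0.67 and 0.66 log2 units and passed it.

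Lama2 was 1.95-fold lower in mdx5cv quadriceps (1.83 to 2.09) and at a ratio of 0.731 in diaphragm (0.707 to 0.755). Both mdx5cv libraries lay below both WT libraries for Lama2. Lamb2 stood at 233, 129, 141 and 141 CPM, 1.81-fold lower in mdx5cv quadriceps (1.64 to 1.99) and at a ratio of 0.998 (0.949 to 1.05) in diaphragm. The WT quadriceps value of Lamb2 stood apart and the other libraries were alike. Lamb2 was also the 1 gene of the 10 whose genotype ratio differed between the muscles by more than 1.5-fold, by -0.85 log2 units (-1.01 to -0.70), where 6.38% of all genes differed that far in that direction and 9.33% in the other. Nid1 was 1.55-fold lower in quadriceps (1.5 to 1.61) and at 0.792 in diaphragm (0.777 to 0.807). When every cell counted equally, Nid1 and Lamb2 came to -0.43 and -0.48 log2 units in quadriceps and were no longer called. Lamc1 had ratios of 0.735 and 0.748, Lama4 of 0.957 and 1.05, Lamb1 of 1.24 and 0.990, and Nid2 of 1.11 and 1.16.

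The states of fibroblast-like cells differed in these genes and in number. Progenitor-like cells, with Pi16 and Dpp4, numbered 379, 139, 2974 and 317, parenchymal-like cells, with Hsd11b1 and Smoc2, numbered 296, 373, 2073 and 575, and cells with injury matrix genes such as Postn and Cthrc1 numbered 2, 465, 46 and 1229. Col4a1 stood at 352, 875, 407 and 477 CPM in progenitor-like cells and at 1646, 2494, 690 and 852 CPM in parenchymal-like cells, and was higher in the latter in every library. Hspg2 showed the same order, with 298, 619, 341 and 485 CPM against 916, 1175, 566 and 717 CPM. Nid2 did so as well, with 54.8, 89.3, 51.2 and 60.6 CPM against 249, 254, 119 and 119 CPM. Nid1 differed less between these states and stood at 1776, 1594, 1246 and 1254 CPM in progenitor-like cells, and it was lower in injury matrix cells, at 771 CPM in mdx5cv quadriceps and 811 CPM in mdx5cv diaphragm. Lamb2 was likewise lowest of the 3 states in injury matrix cells of the mdx5cv libraries, at 87.0 and 117 CPM.

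Within states some genotype differences held and others did not. Among progenitor-like cells of quadriceps 4 genes were higher (14.7% of all genes) and 1 lower (10.1%), and in diaphragm 0 were called, where 10.3% of all genes were higher and 7.49% lower. Col4a1 was 2.49-fold higher (2.21 to 2.80), Col4a2 2.14-fold (1.80 to 2.55), Hspg2 2.08-fold (1.82 to 2.38) and Nid2 1.63-fold (1.15 to 2.29) in quadriceps progenitor-like cells. Among parenchymal-like cells of quadriceps Col4a1 was 1.52-fold higher (1.43 to 1.60; 15.5% of all genes higher) and Lama2 1.73-fold lower (1.57 to 1.91; 13.2% lower), and in diaphragm 0 of the 10 were called, where 12.8% of all genes were higher and 8.62% lower. Lama2 was also 1.52-fold lower (1.29 to 1.80) in progenitor-like cells of quadriceps. Nid1 and Lamb2, lower in the class as a whole, were not called in either state, with Nid1 ratios of 0.898 and 0.903 and Lamb2 ratios of 0.879 and 0.735 in progenitor-like and parenchymal-like cells of quadriceps. Injury matrix cells, 465 of 1260 fibroblast-like cells in mdx5cv quadriceps and 2 of 839 in WT quadriceps, moved with these class-level differences, and their part in them was not tested. Among the injury matrix cells of diaphragm, 46 in WT, Lama4 was 2.14-fold higher (1.45 to 3.32) and Lamb1 1.57-fold higher (1.10 to 2.32), and 0 of the 10 were lower, where 7.68% of all genes were higher and 9.87% lower. With a stricter gate 1 gene of the 10 was called there in place of 2.

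**Figure D4:**
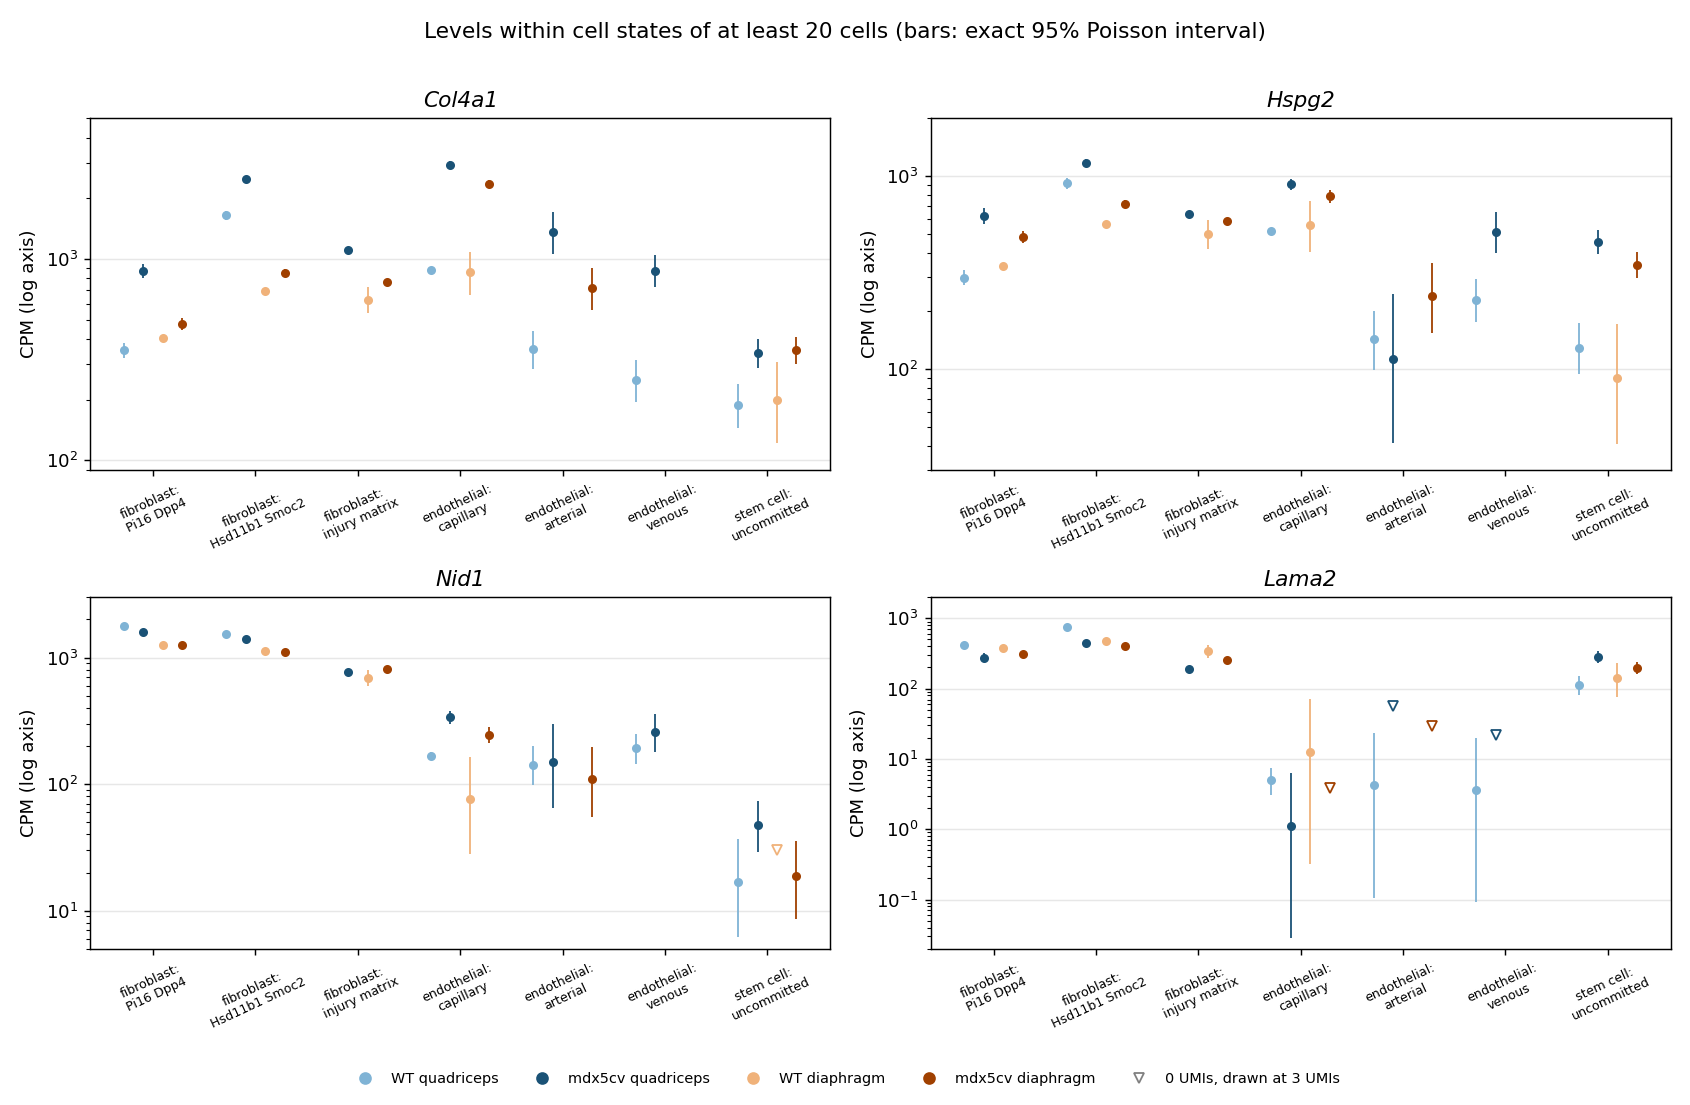
Level of 4 genes in CPM on a log axis within cell states of at least 20 cells; points are libraries, coloured by group, bars are exact Poisson intervals and open triangles are 0 UMIs drawn at 3 UMIs. Col4a1 is higher in mdx5cv than in WT in each state shown with both genotypes of a muscle, and Nid1 is lower in injury matrix cells than in the other fibroblast states.

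In muscle stem cell-like cells, the precursors that lie under the basement membrane of the fibre, Hspg2 and Lamb1 were higher and Lamc1 lower in mdx5cv. Of the 9 genes that passed the level filter in quadriceps 2 were higher and 1 lower, against 26.6% and 13.1% of all genes tested. Of the 6 that passed in diaphragm 2 were higher and 1 lower, against 18.2% and 10.4%. The quadriceps shares are near the background, and the diaphragm shares rest on 6 genes. Hspg2 stood at 110, 293, 105 and 249 CPM, 2.67-fold higher in quadriceps (2.01 to 3.61) and 2.36-fold in diaphragm (1.49 to 3.97). Both mdx5cv values of Hspg2 lay above both WT values without overlap of the intervals. Lamb1 stood at 1.96, 42.3, 5.55 and 60.5 CPM, from 1, 53, 1 and 82 UMIs, a ratio of 21.6 in quadriceps (3.71 to 869) and 10.9 in diaphragm (1.90 to 435). With the WT count raised to a floor of 3 UMIs, as for all calls, the differences of Lamb1 were 2.85 and 1.86 log2 units. Lamc1 stood at 215, 97.3, 172 and 95.1 CPM, 2.21-fold lower in quadriceps (1.69 to 2.89) and 1.81-fold lower in diaphragm (1.18 to 2.69). When each cell was thinned to 1000 UMIs, Lamc1 came to -0.21 and -0.60 log2 units and Lamb1 in diaphragm to 0.69, none of them called, and the median depth of these cells had been 2038.5, 5298.5, 2232 and 5842.5 UMIs. With the mitochondrial limit of 5%, which leaves 43, 13, 10 and 29 cells, Lamc1 in quadriceps changed sign. Lamb1 in quadriceps came to 0.12 log2 units and Lamc1 in diaphragm to -0.38, and neither was called any longer. Lamb1 in diaphragm, with at most 1 WT UMI, gave no usable value.

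The stem cell-like class held cells at different stages. Uncommitted cells, with Pax7, Calcr or Chodl, numbered 163, 87, 39 and 85, and committed cells, with genes such as Myog and Mymk, numbered 17 in mdx5cv quadriceps, 24 in mdx5cv diaphragm and 0 in both WT libraries. In uncommitted cells 6 of the 9 genes that passed were higher in quadriceps (19.2% of all genes) and 4 of 6 in diaphragm (7.74%). In them 0 were lower in either muscle, against 8.76% and 6.59% of all genes. Col4a1 stood at 188, 342, 199 and 354 CPM there, 1.82-fold (1.35 to 2.47) and 1.78-fold (1.11 to 2.98) higher. Hspg2 was 3.53-fold (2.55 to 4.98) and 3.85-fold (1.98 to 8.58) higher in uncommitted cells. Lama2 was 2.52-fold higher in uncommitted cells of quadriceps (1.74 to 3.70), with 112, 282, 139 and 196 CPM, opposite to its direction in fibroblast-like cells of that muscle. Lamc1, lower in the class as a whole, had ratios of 0.703 and 0.842 in uncommitted cells and was not called. Committed cells held 9.70 and 19.8 CPM of Col4a1 and 38.8 and 45.2 CPM of Lamc1 in mdx5cv quadriceps and diaphragm, below the uncommitted cells of the same libraries. Fibroblast markers of 309 to 430 CPM in the stem cell-like class were present beside these values. Lama4, which fibroblast-like cells held at 190 CPM or more, stood at 0 to 2.21 CPM in the same stem cell-like cells. Whether fibroblast RNA contributed to the stem cell-like values was not tested.

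In the small classes of quadriceps, collagen IV and perlecan were higher in mdx5cv Schwann-like cells. Of the 10 genes 3 were higher in mdx5cv Schwann-like cells and 0 lower, against 5.03% and 2.93% of all genes. Col4a1 stood at 246 and 790 CPM, 3.21-fold higher (2.06 to 5.08), Col4a2 at 177 and 484 CPM, 2.74-fold higher (1.59 to 4.81), and Hspg2 at 246 and 471 CPM, 1.92-fold higher (1.16 to 3.18). With the 5% of cells of highest UMI count left out, Col4a2 came to 0.79 log2 units and was no longer called. Lama4 in Schwann-like cells gave a ratio of 1.13 (0.674 to 1.87). In mural-like cells 1 gene was higher and 0 lower, against 4.09% and 2.56% of all genes. That gene was Hspg2, at 100 and 272 CPM, 2.72-fold higher (1.35 to 5.47), which rests on 19 and 18 UMIs and was lost when each cell was thinned to 1000 UMIs or with a stricter gate. Col4a1 in mural-like cells stood at 827 and 1239 CPM and Col4a2 at 564 and 529 CPM. The median over all genes tested was 0.52 log2 units higher in mdx5cv mural-like cells and 0.41 higher in Schwann-like cells. Those classes held fewer UMIs in mdx5cv, 66173 against 189868 in mural-like and 78504 against 130035 in Schwann-like cells. The floor of 3 UMIs is thus a higher CPM in mdx5cv. How much of the median comes from this floor or from a shift shared by the genes was not tested. Relative to that median, Hspg2 in mural-like cells stood at 0.92 log2 units and in Schwann-like cells at 0.53, and neither was called.

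Between muscles of the same genotype, the collagen IV chains and Nid2 were lower in fibroblast-like cells of diaphragm. In WT 5 of the 10 genes were lower in diaphragm and 0 higher, against 11.7% and 6.26% of all genes, and in mdx5cv 3 were lower and 0 higher, against 11.1% and 3.63%. Col4a1 was 1.71-fold and 2.02-fold higher in quadriceps than in diaphragm in WT and mdx5cv. Col4a2 was 1.88-fold and 1.65-fold higher, and Nid2 1.74-fold and 1.67-fold higher. Lama4 and Lamb2 passed in WT, with 1.63-fold and 1.65-fold higher levels in quadriceps. These comparisons share libraries with the genotype comparisons above. In endothelial-like cells, where 9 of the 10 genes passed in either genotype, Lamb1 was higher in diaphragm in both. Lamb1 was the 1 gene called higher in WT (11.2% of all genes), and 1 of 2 in mdx5cv beside Nid2 (4% of all genes). Lamb2 and Hspg2 were lower in diaphragm in WT (7.99% of all genes) and Lamc1 in mdx5cv (8.45%). In stem cell-like cells 0 of the 7 genes that passed were called between the WT muscles. There 5.46% of all genes were higher and 9.04% lower in diaphragm. Of the 9 that passed in mdx5cv, Nid1 and Nid2 were lower in diaphragm (13.9% of all genes).

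Among 24 other basement membrane components, 4 of the 7 genes that passed the level filter were higher in mdx5cv endothelial-like cells of quadriceps and 3 of 8 in diaphragm, and 0 were lower. Of all genes tested there, 17.8% and 6.96% were higher. Col15a1, the basement membrane-associated collagen XV, was 9.84-fold higher in quadriceps (8.57 to 11.3), from 60.0 to 591 CPM, and 20.4-fold higher in diaphragm (7.90 to 75.2), from 21.2 to 432 CPM. The WT diaphragm value of Col15a1 rests on few UMIs, since those 75 cells held 188685 UMIs of all genes. Sparc, a collagen-binding glycoprotein, was 1.90-fold and 4.12-fold higher in endothelial-like cells, 1.59-fold and 1.87-fold higher in fibroblast-like cells and 1.59-fold and 1.96-fold higher in stem cell-like cells. In fibroblast-like cells 3 list members were higher and 5 lower of 11 in quadriceps, and 2 were higher and 3 lower of 7 in diaphragm, where 18.5% and 9.61% of all genes were higher and 14.6% and 10.5% lower. Col4a4, a chain of the other collagen IV networks, was 4.97-fold lower in quadriceps (3.88 to 6.41) and 5.03-fold lower in diaphragm (4.06 to 6.30), opposite to Col4a1. Col4a5 was 2.30-fold and 1.76-fold lower, and Ntn4, a netrin that binds laminin gamma chains, was 1.53-fold and 2.03-fold lower. In stem cell-like cells 4 list members were higher and 4 lower of 9 in quadriceps, and 2 were higher and 0 lower of 6 in diaphragm, against 26.6% higher and 13.1% lower and 18.2% higher and 10.4% lower of all genes. Col18a1, collagen XVIII, rose in stem cell-like cells by 11.8-fold in quadriceps (6.11 to 26.0) and by 3.09-fold in diaphragm (1.17 to 11.6). The median over the genes that passed was 0.74 and 0.64 log2 units in endothelial-like cells of quadriceps and diaphragm, beside 0.17 and 0.07 over all genes. It was -0.35 and -0.56 in fibroblast-like cells, beside 0.07 and 0.05, and -0.58 and 0.11 in stem cell-like cells, beside 0.29 and 0.36.

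Of the 15 genes of collagen IV assembly and secretion all passed the filter in fibroblast-like cells, and 10 were higher in quadriceps and 7 in diaphragm, with 0 lower, where 18.5% and 9.61% of all genes were higher. The median was 0.84 and 0.48 log2 units, beside 0.07 and 0.05 over all genes. Those called in both muscles were P3h1, P4ha3 and P4hb, which take part in prolyl hydroxylation, Plod1, Plod2 and Plod3, the lysyl hydroxylases, and Pxdn, peroxidasin, which forms the sulfilimine cross-link of collagen IV. Pxdn was 1.63-fold and 2.73-fold higher in fibroblast-like cells, 1.53-fold and 1.90-fold in endothelial-like cells and 2.64-fold and 3.95-fold in stem cell-like cells. Serpinh1, the collagen chaperone, was 1.79-fold (1.65 to 1.95) and 1.73-fold (1.36 to 2.22) higher in endothelial-like cells, where 12 list members passed in quadriceps, 6 of them higher and 1 lower, and 13 in diaphragm, 3 of them higher, against 17.8% and 6.96% of all genes higher. In stem cell-like cells 5 of 11 were higher in quadriceps and 4 of 12 in diaphragm, with 0 and 1 lower, against 26.6% and 18.2% of all genes higher, and those called in both muscles were Ppib, P4hb, Plod2 and Pxdn. These enzymes also modify other collagens.

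Of 15 receptors of laminin and collagen IV, 10 passed in stem cell-like cells of quadriceps and 9 in diaphragm, with 5 and 3 higher and 0 and 1 lower, where 26.6% and 18.2% of all genes were higher and 13.1% and 10.4% lower. Itga7, the integrin chain that pairs with Itgb1 to bind laminin on muscle cells, rose there by 4.66-fold in quadriceps (3.26 to 6.87) and by 3.78-fold in diaphragm (1.96 to 8.36). Sdc1, a heparan sulfate syndecan, stood at 3.91, 63.0, 0 and 32.4 CPM in stem cell-like cells and was 6.12-fold and 4.04-fold higher in fibroblast-like cells. Sdc3 was 5.98-fold and 6.55-fold higher in fibroblast-like cells and 1.62-fold and 2.04-fold higher in endothelial-like cells. In those classes 4 of 8 and 2 of 8 receptors were higher in fibroblast-like cells, with 1 and 0 lower, and 2 of 6 and 3 of 8 in endothelial-like cells, with 0 lower. The shares of all genes higher were 18.5% and 9.61% in fibroblast-like cells and 17.8% and 6.96% in endothelial-like cells.

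Over 22 profiles of a class in a library with at least 50 cells, Col4a1 and Col4a2 were each other's closest gene among 11563, with a Pearson r of 0.99 on log2(CPM + 10). Profiles of a library share its depth and free RNA, and immune classes with values near 0 are among them, so r is a description. Hspg2 was the second closest gene to Col4a1 (r = 0.95), and the closest to Hspg2 were Cttn, S100a16 and Ppic, from 0.97 down. The fibrillar collagen gene Col5a3 and the mesenchymal transcription factor gene Prrx1 were among the 3 closest to Lama2, with Pygo1 between them (0.96, 0.94 and 0.95). Lama4 was closest to Fbln5, which encodes an elastic fibre protein, at 0.96, then to Nynrin and Prrg3. The pair of members least alike was Lama2 and Lama4, with r of 0.26. Lamc1 was closest to Fstl1, Fkbp9 and Pam, Nid1 to Ecm2, Gpr180 and Runx1t1, and Nid2 to Gabarapl1, Csrp2 and Tmem106b. Lamb1 was closest to Rab2a, Cdr2l and Wipi1, and Lamb2 to Hook3, Vangl1 and Pkd2.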

How the data were processed

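Per the labels' protocols, the libraries were made with 10x Genomics 3′ chemistry for a target of 5000 cells each. The authors deposited unfiltered matrices of raw UMI counts per gene and barcode. Per the submitters' processing notes they used Cell Ranger 5.0.0 and mm10, whereas the matrix header names version 4, and which gene annotation was used is not given here. The 10 genes, the other lists and the comparisons were chosen with earlier results of these data known. The class rule was set after the numbers of cells per class were seen. It asked for at least 3 markers and a runner-up share at most 50% of the top share. Myeloid and lymphoid shares were not set against each other. No doublet caller was run. For each library, the UMIs of a gene over all cells of a class were scaled to the total of that class to give CPM. Levels carry exact Poisson, shares exact binomial (Clopper-Pearson), and ratios exact conditional intervals. Differences of log2 ratios have delta-method intervals. States needed at least 2 state markers, and ratios at least 20 cells in both libraries. Under 3 UMIs a count was set to 3 for calls and log2 values. Free RNA was read from barcodes of 10 to 100 UMIs. All 10 genes are named whatever their values; list members are named where called alike in both muscles, and the 3 most alike genes by r. Python 3.11.15, numpy 2.4.6, scipy 1.17.1 and pandas 2.3.3 were used. The calling rule was tested on simulated data, of which no result is given or used here.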

Additional observations from a re-analysis of the deposited data

How the results depend on the processing

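No paired analysis was possible because each group has 1 library, and for the same reason no library could be left out. The ratios of single genes stayed on the same side of the rule, called or not, in 671 of 730 combinations of gene, class, muscle and setting, and ratios near 1 that were not called could change sign among these. The mitochondrial limit of 5% left 22 WT diaphragm endothelial-like cells and between 10 and 43 stem cell-like cells per library. Under it the genes called numbered 3 in place of 5 in endothelial-like cells of diaphragm and 1 in place of 3 in stem cell-like cells of either muscle. It also turned Lamc1 in stem cell-like cells of quadriceps to 0.70 log2 units, from 13 mdx5cv cells. The value for Lamb1 in those of diaphragm, -1.33, comes from at most 1 WT UMI in 10 cells raised to the floor of 3 and is not a measured reversal. Under the same limit the class with the highest level was the same in both quadriceps libraries for 4 genes in place of 7, and in all 4 libraries for 3 genes in place of 5. A fold of 2 left 4 genes of 7 and 3 of 5 in endothelial-like cells of quadriceps and diaphragm, and 0 in fibroblast-like cells of either muscle, by construction. Thinning to 1000 UMIs left 0 in fibroblast-like cells of diaphragm, 0 in mural-like cells and 1 in stem cell-like cells of diaphragm. In mural-like cells a stricter gate gave 0 and a minimum of 2000 UMIs gave 2 genes in place of 1. Apart from the fold of 2, the cause was not tested. In the thinned setting fewer UMIs are counted, cells weigh equally, and the ratios moved as well. There Col4a2 in fibroblast-like cells of diaphragm came to 0.58 log2 units, against 0.73 before thinning. Col4a1 in endothelial-like cells ranged from 1.51 to 1.87 log2 units in quadriceps and from 1.48 to 2.16 in diaphragm over all settings. Subtracting free RNA changed no call of a single gene, with the counting interval taken from the counts before subtraction. The estimated share was 0% in Schwann-like cells of every library and in mural-like cells of mdx5cv quadriceps. It was also 0% in endothelial-like and stem cell-like cells of WT diaphragm. Nothing was subtracted there, so the calls of Schwann-like cells were fixed in advance and those other comparisons were corrected on 1 side only. Dropping the level filter could not change a call, because only combinations that had passed that filter were followed. Its 73 of 73 within the count above was therefore fixed in advance. Depth limits the WT diaphragm endothelial-like values (75 cells) and all values of mural-like and Schwann-like cells.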

Other observations

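Mesothelial-like cells, the lining of the body cavity with markers such as Msln and Upk3b, were found in the diaphragm libraries, 85 in WT and 46 in mdx5cv. Nid2 stood at 479 CPM (416 to 548) and 519 CPM (428 to 624) in them, the highest level of that gene in any class of those libraries with at least 20 cells, against 76.1 and 88.4 CPM in fibroblast-like cells. Nid2 made up 90.6% and 91.1% of the summed nidogen UMIs there, and these cells, 1.20% and 0.685% of assigned cells, held 8.40% and 6.57% of Nid2 UMIs. Lama4 made up 91.7% and 95.8% of the summed Lama4 and Lama2 UMIs in mesothelial-like cells. Col4a1 was lower in them than in fibroblast-like cells, at 90.7 and 138 CPM.

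Tenocyte-like cells numbered 38 in each quadriceps library. Col4a1 stood at 379 and 1032 CPM in those of WT and mdx5cv, and Lama2 at 351 and 148 CPM. Lamb2 made up 96.2% and 85.4% of the summed Lamb2 and Lamb1 UMIs in them.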
